A study of Mus musculus with 14 samples.

Results

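Immediate early genes are transcribed within minutes of a signal reaching a cell, without the making of new protein, and most of their products are transcription factors that set off later waves of transcription. Growth factors, contraction, stretch, injury and stress switch them on in skeletal muscle through the serum response factor, cAMP response element binding proteins and MAP kinases, and their short-lived mRNAs disappear again soon after the signal ends. Their level in a piece of tissue therefore reports the recent history of its cells, and muscle holds fibres, endothelium, fibroblasts and other cells that can each respond.

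The genes described here are Egr1, Egr2, Egr3, Fos, Fosb, Jun, Junb, Atf3, Ier2 and Ier5, which are 10 of the 54532 genes counted. They were chosen by name, with the group and library differences of their counts in these same 14 libraries already known. Their values are therefore given as a description. Where the fit across all genes called some of them, the number stands beside the share of all tested genes called, and nothing is supported with it.

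The study overexpressed c-Myc in the endothelium of FVB/N male mice and fed them a control diet (CTD) or a western, high-fat diet (WD) for 20 weeks by the labels and methods, while the study's account of the transcriptome gives a shorter time. EC-Myc OE mice carried a Cdh5 promoter-driven tetracycline transactivator and a tetracycline-responsive human MYC transgene, and control littermates (CT) carried the responsive transgene without the transactivator. Doxycycline was withdrawn from all mice at 4 to 6 weeks of age, which releases the transgene where the transactivator is present. Polyadenylated RNA of skeletal muscle, soleus and gastrocnemius by the study's methods, was sequenced in 3 CT CTD, 3 CT WD, 4 EC-Myc OE CTD and 4 EC-Myc OE WD libraries, and the muscle behind each library is not given in the sources used here. The libraries held from 21833839 to 28519159 gene counts. The Cdh5 promoter is active in endothelial cells, whereas the RNA came from whole muscle. The transgene is human and the counts are of mouse genes, so mouse Myc does not check the genotype labels. The libraries held fibre markers at a summed 109481 to 158844 counts scaled to library size (CPM), with Myh4 the most abundant of 7, and none of those 7 was at 0, as the label skeletal muscle states.

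Library names bear on how the groups can be read. All 4 EC-Myc OE WD names share 1 number, and 3 of the 4 EC-Myc OE CTD names share another. The 6 CT names carry other numbers than the 8 EC-Myc OE names. Among CT names, the numbers of CT CTD 1 and CT WD 1 are neighbours and lie apart from those of the other CT libraries, which run on from each other. Each CT diet group thus holds libraries of both runs, and an effect of the run was not tested. What these numbers mark, a litter, a cage or a mouse, is not given in the sources used here, so libraries of 1 group may not be independent animals. An effect shared by libraries of 1 number cannot be told apart from the diet among EC-Myc OE libraries. Nor can it be told apart from the genotype on either diet, since CT and EC-Myc OE libraries share no number. The EC-Myc OE CTD and EC-Myc OE WD libraries numbered 4 also stood apart from the rest. Mitochondrial genes took 14.9% and 14.5% of their counts, against 9.66% to 12.8% in the other 12.

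All 10 genes passed the filter on low counts that kept 15458 genes for testing. Levels between genes are compared as FPKM, which is per length. Jun was the most abundant at a mean of 47.7 FPKM over the 14 libraries. Atf3 followed at a mean of 20.5 FPKM, and its place rests on 1 library described below. Junb, Fos, Egr1, Ier2 and Ier5 lay between 15.1 and 8.63 mean FPKM. Egr3, Egr2 and Fosb were each below 1 mean FPKM, at 0.948, 0.904 and 0.709. By library Egr3 had 8 to 345 counts, Fosb 17 to 254 and Egr2 27 to 113, each with its lowest count in CT CTD 2.

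The genes also differed in how far they varied. Between libraries, levels are given as CPM with TMM normalization, which scales each library to a common composition. The highest library was 34 times the lowest for Egr3, 28.7 times for Atf3, 12.8 times for Fosb, 9.48 times for Fos and 9.15 times for Egr1. The ratio of Atf3 rests on CT WD 3, without which Atf3 ran from 10.7 to 31.9 CPM, and that of Egr3 partly on CT CTD 2, without which Egr3 ran from 0.596 to 11.4 CPM. For Jun, whose protein is the main partner of the Fos proteins, the ratio was 2.04. In SD of log2 CPM over the 14 libraries, Egr3 stood at percentile 99.5 of the tested genes and Jun at percentile 61.3. The other 8 genes fell between these.

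**Figure D1:**
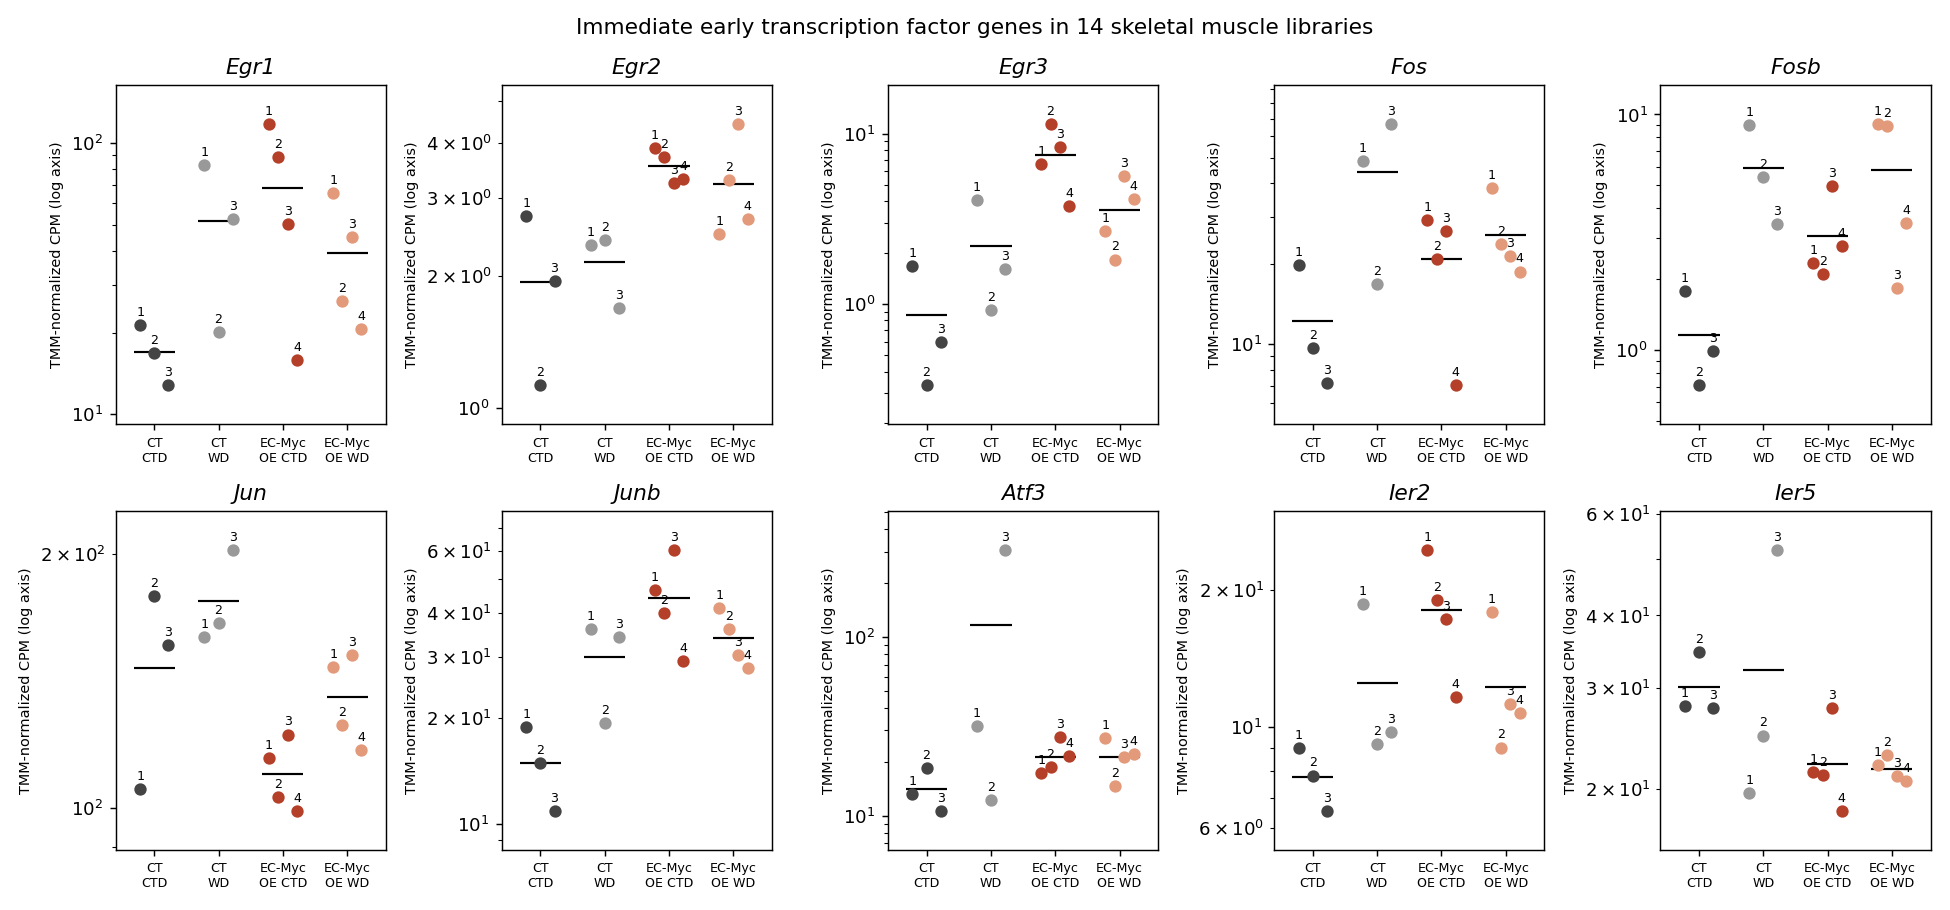
TMM-normalized CPM on a log axis of the 10 genes in each of the 14 libraries, by group, with the replicate number beside each point and a bar at the group mean. The CT CTD libraries hold the lowest value of Egr1, Egr2, Egr3, Fosb, Junb, Atf3 and Ier2, and CT WD 3 holds the single high Atf3 value of 307.1 CPM.

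Egr1, Egr2 and Egr3 encode zinc finger factors that bind a shared GC-rich element. Egr1 answers mitogens and mechanical load, Egr2 acts in myelinating Schwann cells and lymphocytes, and Egr3 is needed for the muscle spindle. Egr1 in CT CTD was at 21.3, 16.8 and 12.8 CPM. In CT WD it was at 82.6, 20.1 and 52.3 CPM. On the control diet, EC-Myc OE libraries had Egr1 at 117.3, 88.6, 50.2 and 15.9 CPM, and in EC-Myc OE WD at 65.4, 26.2, 45.2 and 20.5 CPM. Egr1 was thus low in every CT CTD library and spread widely in the other 3 groups, each of which held at least 1 library within the CT CTD range. Group means were 17.0 ± 4.23 (SD, n = 3), 51.7 ± 31.3 (n = 3), 68.0 ± 44.3 (n = 4) and 39.3 ± 20.3 CPM (n = 4), and the last 3 groups overlapped.

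Egr3 separated the genotypes on the control diet. It was at 1.66, 0.335 and 0.596 CPM in CT CTD. In EC-Myc OE CTD it was at 6.59, 11.4, 8.33 and 3.78 CPM, all above CT CTD. In CT WD it was at 4.09, 0.918 and 1.60 CPM, and in EC-Myc OE WD at 2.68, 1.82, 5.66 and 4.14 CPM, and these groups overlapped with each other. The order of group means was EC-Myc OE CTD at 7.52 ± 3.19, EC-Myc OE WD at 3.58 ± 1.68, CT WD at 2.20 ± 1.67 and CT CTD at 0.864 ± 0.703 CPM. Each pair of neighbours in that order overlapped.

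Egr2 was higher in EC-Myc OE than in CT libraries of the same diet, but narrowly so on the western diet. It was at 2.73, 1.13 and 1.95 CPM in CT CTD and at 2.35, 2.42 and 1.69 CPM in CT WD. EC-Myc OE CTD libraries had Egr2 at 3.91, 3.73, 3.26 and 3.32 CPM, and in EC-Myc OE WD at 2.49, 3.30, 4.42 and 2.69 CPM. Each EC-Myc OE group lay above the CT group of the same diet without overlap, although Egr2 in EC-Myc OE WD 1 and 4 was below the highest CT CTD library. On the western diet the gap ran only from 2.42 CPM in CT WD 2 to 2.49 CPM in EC-Myc OE WD 1, which held 64 counts.

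Fos, Fosb, Jun and Junb encode subunits of AP-1, a dimer of 1 Fos or Jun protein with a Jun protein. Fos and Fosb proteins need a Jun partner to bind DNA, and Junb often restrains genes that Jun activates. Fos was at 19.8, 9.71 and 7.15 CPM in CT CTD. In CT WD it was at 48.5, 16.9 and 66.8 CPM. In EC-Myc OE CTD it was at 29.2, 20.9, 26.6 and 7.04 CPM, and in EC-Myc OE WD at 38.5, 23.7, 21.4 and 18.7 CPM. Fos was highest in CT WD 3 and CT WD 1, and every pair of groups overlapped.

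Fosb was higher in every CT WD library than in any CT CTD library. It was at 1.78, 0.711 and 0.993 CPM in CT CTD and at 9.002, 5.41 and 3.42 CPM in CT WD. EC-Myc OE CTD libraries had Fosb at 2.34, 2.11, 4.95 and 2.76 CPM, and in EC-Myc OE WD at 9.10, 8.91, 1.83 and 3.45 CPM. The EC-Myc OE WD libraries fell apart into a high and a low pair, so that group overlapped with both CT WD and EC-Myc OE CTD.

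Junb was lowest in CT CTD, at 18.9, 14.9 and 10.9 CPM. In CT WD it was at 36.0, 19.4 and 34.1 CPM. EC-Myc OE CTD libraries had Junb at 46.4, 39.8, 60.5 and 29.1 CPM, and in EC-Myc OE WD at 41.3, 36.0, 30.3 and 27.8 CPM. All 11 libraries of the other 3 groups lay above the highest CT CTD library, CT WD 2 by less than 1 CPM. Group means were 14.9 ± 3.99 in CT CTD, 29.8 ± 9.11 in CT WD, 33.8 ± 6.05 in EC-Myc OE WD and 44.0 ± 13.1 CPM in EC-Myc OE CTD, and the last 3 groups overlapped.

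Jun went another way. It was at 105.5, 178.4 and 156.1 CPM in CT CTD and at 159.7, 165.8 and 202.5 CPM in CT WD. Jun in EC-Myc OE CTD was at 114.8, 103.1, 122.3 and 99.4 CPM, and in EC-Myc OE WD at 147.0, 125.5, 151.8 and 117.1 CPM. Every EC-Myc OE WD library was below every CT WD library, while on the control diet CT CTD 1 lay within the EC-Myc OE range.

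Atf3 encodes a stress-induced factor of the ATF/CREB family that often represses its targets, and 1 library set its group mean. It was at 13.3, 18.5 and 10.7 CPM in CT CTD, at 17.3, 18.6, 27.7 and 21.6 CPM in EC-Myc OE CTD and at 27.4, 14.6, 21.4 and 22.2 CPM in EC-Myc OE WD. In CT WD it was at 31.9, 12.2 and 307.1 CPM. CT WD 3 held 6907 Atf3 counts, and its level was 9.64 times that of the next library and 15.3 times the median. Without CT WD 3, all Atf3 values lay between 10.7 and 31.9 CPM and the 4 groups overlapped.

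Ier2 and Ier5 are related small nuclear proteins of the immediate early response, and Ier5 takes part in heat shock factor activity. Ier2 was at 8.98, 7.82 and 6.55 CPM in CT CTD and at 18.6, 9.18 and 9.74 CPM in CT WD. In EC-Myc OE CTD it was at 24.5, 19.0, 17.2 and 11.6 CPM, and in EC-Myc OE WD at 17.9, 9.01, 11.2 and 10.7 CPM. Every library outside CT CTD was above every CT CTD library, narrowly so for EC-Myc OE WD 2. Ier5 was at 27.9, 34.6 and 27.7 CPM in CT CTD, at 19.7, 24.8 and 52.0 CPM in CT WD, at 21.4, 21.2, 27.7 and 18.4 CPM in EC-Myc OE CTD and at 22.1, 22.9, 21.1 and 20.6 CPM in EC-Myc OE WD. Ier5 was highest in CT WD 3 and did not share the low CT CTD values of Ier2, and its lowest CT CTD and highest EC-Myc OE CTD values were nearly equal.

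Seen by library, most of the 10 genes were low in CT CTD. Each of the 3 CT CTD libraries was below the 14-library median in 8 of the 10 genes. The exceptions were Egr2 and Ier5 in CT CTD 1, and Jun and Ier5 in CT CTD 2 and 3. The mean of the 10 genes' log2 CPM, each centred on its own mean, was −0.42, −0.91 and −1.004 in CT CTD, the lowest 3 of the 14. The same mean was highest in CT WD 3 at 0.63 and CT WD 1 at 0.57, while CT WD 2 was at −0.35. The CT WD 3 value includes Atf3 at 15.3 times its median, so its first place is not a trait of the 10 genes alike. By genes above the 14-library median, CT WD 3 had 7, CT WD 1 had 8 and EC-Myc OE CTD 3 had 9. In EC-Myc OE CTD it was 0.45, 0.35, 0.52 and −0.31, and in EC-Myc OE WD 0.45, 0.00, 0.12 and −0.09. Both EC-Myc OE libraries numbered 4, those with the high mitochondrial share, were the lowest of their groups. CT WD 3 was the highest library of all for Fos, Jun, Atf3 and Ier5.

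Adjusted p-values of other genes below are from edgeR's quasi-likelihood test, adjusted by Benjamini-Hochberg over the 15458 tested genes within a comparison. A gene is counted as called at adjusted p under 0.05 and a fold change over 1.5, and as called without adjustment at unadjusted p under 0.05 and the same fold. Differences of the 10 genes are given from the same fit as log2 fold change ± SE.

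The first comparison asks how the western diet relates to the muscle of control mice. All 10 genes were higher in CT WD than in CT CTD, although for Egr2 and Ier5 the direction rests on 1 library. Fosb was higher by log2 2.35 ± 0.58, Fos by 1.85 ± 0.52 and Egr1 by 1.61 ± 0.60. Egr3 was higher by log2 1.37 ± 0.63, Junb by 1.004 ± 0.27 and Ier2 by 0.69 ± 0.31. Atf3 was higher by log2 3.05 ± 0.78, and by 0.65 without CT WD 3. Without CT WD 1 the difference of Egr3 was log2 0.54 and that of Ier2 0.28, and without CT CTD 1 that of Egr3 was 2.25. Jun was higher by log2 0.26 ± 0.16, with 0.06 without CT CTD 1, 0.43 without CT CTD 2 and 0.15 without CT WD 3. Egr2 was higher by log2 0.15 ± 0.30, with −0.12 without CT CTD 2, and Ier5 by 0.10 ± 0.25, with −0.44 without CT WD 3 and values just below 0 under limma and in a replicate block.

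The median difference of the 10 genes was log2 1.19, beside 0.01 over all tested genes, and 0.69 without CT WD 1. No gene of the 10 was called by edgeR at the adjusted level, where 0% of all tested genes were. DESeq2 also called 0 of the 10, beside 0.201%, and limma 0 beside 0%, and edgeR with no filter on low counts called 5 (Egr1, Junb, Atf3, Fos and Fosb) beside 0.315% of the genes in that fit. With the names of CT WD and EC-Myc OE CTD exchanged, edgeR called 3 (Egr3, Junb and Ier2) beside 1.91%, which is the control diet comparison of genotypes under another name. Without adjustment 7 were called higher, where 3.05% of all tested genes were called in either direction. That count ran from 4 to 7 with 1 library left out, beside 2.6% to 5.43%. Under limma it was 4, beside 0.666% or 2.35% by pseudocount. Libraries did not overlap for 3 (Fosb, Junb and Ier2), where 9.63% of tested genes did not. Since the genes were chosen with these values known, nothing is read from these counts. Taking CT libraries of the same replicate number as pairs, Egr1, Egr3, Fos, Fosb, Junb and Ier2 were higher on the western diet in 3 of 3 pairs, Jun and Atf3 in 2 of 3, and Egr2 and Ier5 in 1 of 3. The labels state no such pairing.

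The same comparison in EC-Myc OE mice gave no common direction. In EC-Myc OE WD against EC-Myc OE CTD, 4 genes were higher and 6 lower, with a median of log2 −0.09 beside 0.00 over all tested genes, and of −0.17 without EC-Myc OE WD 3 and −0.04 without EC-Myc OE WD 4. Egr3 was lower, at log2 −1.09 ± 0.46, and Egr1 at −0.79 ± 0.50, and at −0.40 without EC-Myc OE CTD 1. Fosb was higher by log2 0.95 ± 0.46. The remaining genes lay between log2 −0.57 for Ier2 and 0.30 for Jun, with Atf3 at 0.01 ± 0.64, and the directions of Atf3 and Ier5 turned without single EC-Myc OE libraries. All 10 genes overlapped between these groups, where 4.08% of tested genes did not. At the adjusted level edgeR, DESeq2 and limma each called 0 of the 10 beside 0.00647% of all tested genes. Without adjustment edgeR called 1 (Egr3) beside 1.37%, and nothing is read from it. Without EC-Myc OE CTD 4 or other single libraries that count ran from 0 to 3.

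On the control diet, which asks how endothelial c-Myc relates to muscle without a dietary load, 8 of the 10 genes were higher in EC-Myc OE CTD than in CT CTD, and Jun and Ier5 were lower. Egr3 was higher by log2 3.11 ± 0.59, Egr1 by 2.01 ± 0.58 and Egr2 by 0.87 ± 0.27. Junb was higher by log2 1.56 ± 0.26 and Fosb by 1.37 ± 0.56. Ier2 was higher by log2 1.22 ± 0.29, Fos by 0.78 ± 0.48 and Atf3 by 0.59 ± 0.71. Jun stood at log2 −0.42 ± 0.15 and Ier5 at −0.44 ± 0.24. These directions held when any single library was left out. Fos was at log2 1.31 without CT CTD 1 and 0.51 without CT CTD 3, and Jun at −0.25 without CT CTD 2.

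The median of the 10 genes on the control diet was log2 1.05, beside 0.00 over all tested genes. At the adjusted level 3 were called (Egr3, Junb and Ier2), where 1.91% of all tested genes were. DESeq2 called 5 (also Egr1 and Egr2) beside 3.29% of all genes in its fit, and edgeR with no filter 5 (also Egr1 and Fosb) beside 2.04%. Limma called 2 (Egr3 and Junb) beside 0.757% or 1.27% by pseudocount, and edgeR with a replicate block 2 (Egr1 and Ier2) beside 0.0906%. With the names of CT WD and EC-Myc OE CTD exchanged, 0 were called beside 0%. The Junb call was lost without CT CTD 3, that of Egr3 without CT CTD 2 or 3, and that of Ier2 without any CT CTD library, EC-Myc OE CTD 1, 2 or 3, or EC-Myc OE WD 3. Without adjustment 6 were called (Egr1, Egr2, Egr3, Fosb, Junb and Ier2) beside 7.12%. Libraries did not overlap for Egr2, Egr3, Fosb, Junb and Ier2, higher in EC-Myc OE CTD, and for Ier5, lower, which is 6 of 10 beside 15.5% of tested genes. Nothing is read from these counts, because the choice of genes used this contrast.

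On the western diet, in EC-Myc OE WD against CT WD, 3 genes were higher and 7 lower, with a median of log2 −0.21 beside 0.01 over all tested genes. That median was 0.23 without CT WD 1, −0.37 without EC-Myc OE WD 1, −0.04 in a replicate block and −0.09 without both EC-Myc OE libraries numbered 4. Egr2 was higher by log2 0.58 ± 0.27 and Egr3 by 0.66 ± 0.53, with 1.49 without CT WD 1, 0.31 without CT WD 2 and 0.35 without EC-Myc OE WD 3. Jun stood at log2 −0.38 ± 0.15 and Fos at −0.78 ± 0.46, with −0.36 without CT WD 3. Atf3 stood at log2 −2.45 ± 0.68, and at −0.05 without CT WD 3, and Ier5 at −0.57 ± 0.24, and at −0.04 without CT WD 3. The direction of Egr1, Fosb and Ier2 turned without CT WD 1, to log2 0.11, 0.41 and 0.37, and that of Junb turned without CT WD 2, to −0.05. Fosb at −0.03 ± 0.48 and Ier2 at −0.04 ± 0.28 were so close to 0 that other single libraries turned them too. At the adjusted level edgeR called 0 of the 10 beside 0.563% of all tested genes and limma 0 beside 0.194%, and DESeq2 and edgeR with no filter called Atf3, beside 309 of 15458 and 401 of 27899 genes. Without CT WD 1 edgeR called Atf3 and Ier5 beside 5.72% of the genes in that fit. Without adjustment edgeR called Atf3 alone beside 5.74%. With 1 library left out that count ran from 0, without CT WD 3 and beside 3.75%, to 3, as without CT WD 1 and beside 11.8%. Libraries did not overlap for Egr2 and Jun, where 11.6% of tested genes did not, and nothing is read from these counts.

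The diet by genotype interaction measures whether the diet difference itself differed between genotypes, and it uses the values of all 4 groups. For 9 of the 10 genes it was below 0, with a median of log2 −1.39 beside −0.01 over all tested genes. It was −2.41 ± 0.79 for Egr1, −2.45 ± 0.78 for Egr3, with −1.63 without CT WD 1, −1.57 ± 0.67 for Fos and −1.38 ± 0.35 for Junb. For Atf3 it was −3.04 ± 0.99, and −0.64 without CT WD 3. Jun was at 0.04 ± 0.22 and Ier5 at −0.13 ± 0.34, and both changed sign when single libraries were left out. At the adjusted level edgeR and limma called 0 of the 10 beside 0% of all tested genes, DESeq2 0 beside 0.0194%, and edgeR with no filter called 4 (Egr1, Egr3, Junb and Atf3) beside 0.104%. Without adjustment edgeR called 6 (Egr1, Egr3, Fos, Junb, Atf3 and Ier2) beside 2.70%, and nothing is read from it. The comparisons share CT CTD or other groups, so the low CT CTD values enter the CT diet difference, the control diet genotype difference and the interaction alike.

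The genes did not move as 1 block across libraries. Over the 45 pairs of genes, the median Pearson correlation of log2 CPM over the 14 libraries was 0.36, and 0.20 after each group's mean was removed, and 32 of the 45 were positive. Egr1 and Ier2 moved most closely at 0.88, and at 0.86 with group means removed. Fos and Junb reached 0.65, and 0.92 with group means removed. Egr1 and Fos reached 0.76 and 0.84 on the same 2 scales. Jun and Egr2 ran in opposite directions at −0.68, and at −0.55 with group means removed. Atf3 and Ier5 stood at 0.62, and at 0.80 with group means removed, which became −0.41 and 0.54 without CT WD 3. These values share libraries and depth, and describe the 14 libraries only.

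**Figure D2:**
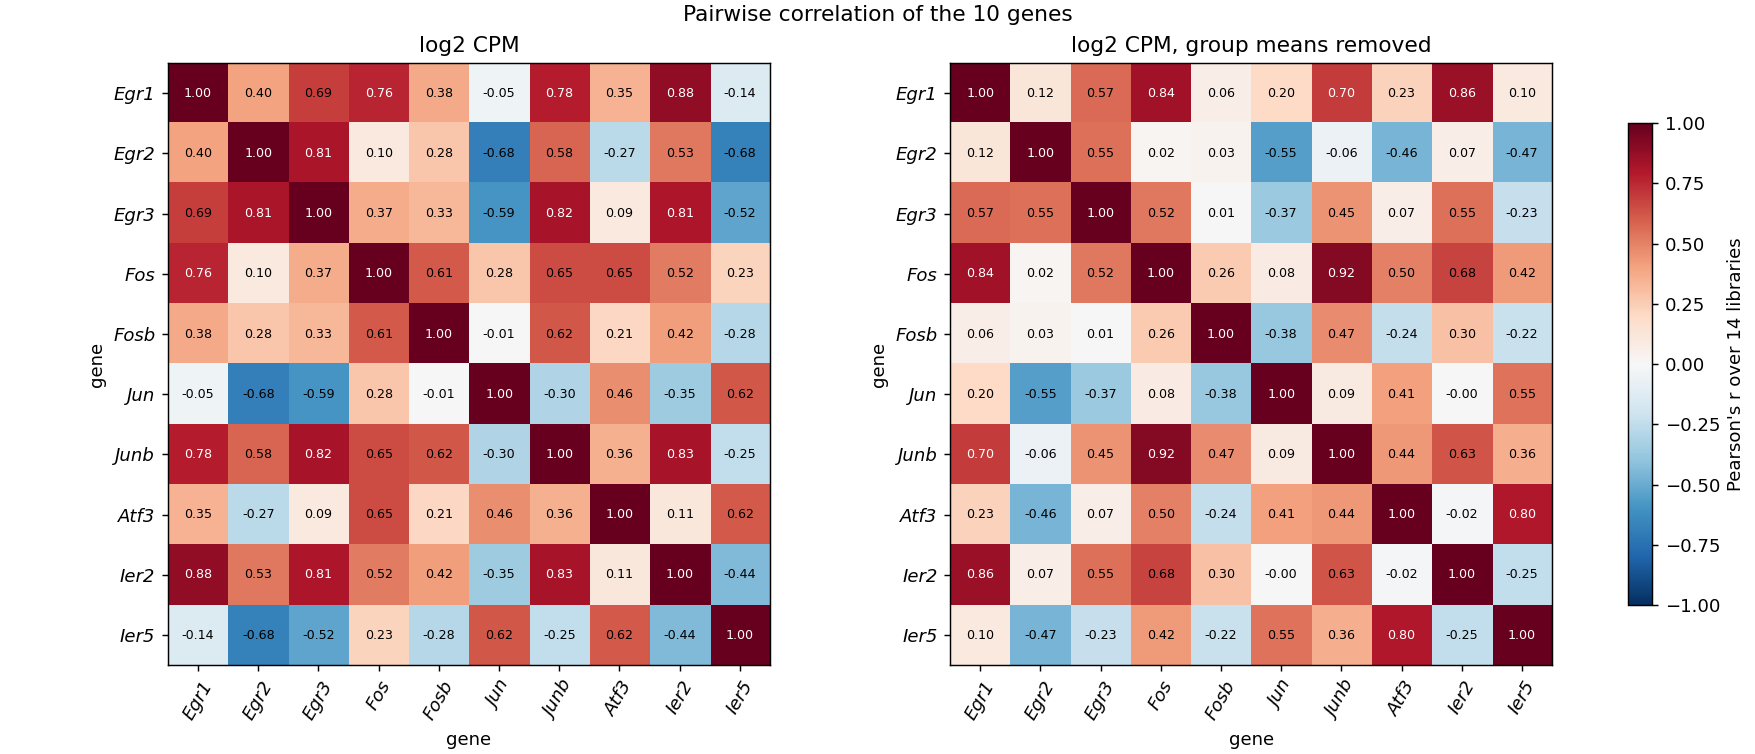
Pearson correlation of log2 CPM between each pair of the 10 genes over the 14 libraries, as measured (left) and after removing each group's mean (right), on a color scale from −1 to 1. Egr1, Fos, Junb and Ier2 hold positive values with each other on both sides, and Egr2 and Jun stand at −0.68 and −0.55.

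Among 12736 other genes, the pattern most like the mean of the 10 was that of Btg2, an antiproliferative gene that is itself induced early, at a Pearson correlation of 0.92 over the 14 libraries. Both were highest in CT WD 3, where Btg2 was at 80.8 CPM and Atf3, which enters the mean, at 307.1 CPM. The ranking is given with that library in it only. Tubb2a, Nov, Tbcel, Tagln2, Man1a, Fxyd5 and Csrp1 followed at 0.90 to 0.86. With group means removed, the closest were Oxsm and Pacsin2 at 0.90, L1cam and Emb at 0.89, Gm17501, Slc25a24 and Rgs2 at 0.88 and Tbcel at 0.87. Btg2 and Rgs2 belong to the list of other immediate early genes described next, and the others belong to none of the lists.

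Related genes come from 7 lists of 116 genes, of which 112 passed the filter and were tested. In CT WD against CT CTD, edgeR called 0 of the 112 at the adjusted level and 22 without adjustment, 21 higher and Fosl1 lower, where 3.05% of all tested genes were called without adjustment. DESeq2 called 4 (Sik1, Mafk, Btg2 and Ppp1r15a), beside 0.201% of all tested genes, limma 0 beside 0%, and edgeR with no filter 15 beside 0.315%. With CT libraries of the same number taken as pairs in a replicate block, edgeR called 3 (Zfp36, Sik1 and Nr4a3) beside 0.0647%, and that pairing is not established. The median over the 112 was log2 0.23, beside 0.01 over all tested genes.

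Of the 38 other immediate early genes tested, 12 were called higher in CT WD without adjustment, beside that 3.05%, and 0 with it, and their median was log2 0.45. Sik1, a kinase that restrains CREB coactivators, was at 22.03, 23.5 and 26.2 CPM in CT CTD and at 47.4, 46.3 and 90.0 CPM in CT WD, so the 2 groups did not overlap. It was higher by log2 1.36 ± 0.25 (adjusted p = 0.277). Btg2 was at 22.3, 20.5 and 17.2 CPM in CT CTD and at 45.5, 29.6 and 80.8 CPM in CT WD, also without overlap, and was higher by log2 1.38 ± 0.29 (adjusted p = 0.277), and by 0.91 without CT WD 3. Nr4a1, an orphan nuclear receptor and the most abundant of the list in CPM together with the survival factor Mcl1, ran from 131.4 to 400.8 CPM. It was higher in CT WD by log2 0.72 ± 0.25 (adjusted p = 0.561), and Mcl1 by 0.23 ± 0.11 (adjusted p = 0.679), with 0.34 without CT CTD 1 and 0.14 without CT CTD 2.

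On the control diet, edgeR called 5 of the 112 related genes higher in EC-Myc OE CTD and 0 lower, beside the 1.91% of all tested genes called, and 17 higher without adjustment beside 7.12%. The 5 were Bhlhe40, Nab2, Klf2, Spry4 and Mafk. Of the 38 other immediate early genes, 14 were higher without adjustment, beside the same 7.12%, and their median was log2 0.52 beside 0.00 over all tested genes. DESeq2 called 9 of the 112 beside 3.29%, edgeR with no filter 13 beside 2.04%, limma 1 beside 0.757% or 1.27% and edgeR with a replicate block 0 beside 0.0906%, although replicate numbers do not pair these libraries.

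Bhlhe40, a basic helix-loop-helix repressor that links hypoxia and clock signals, separated the genotypes on both diets. It was at 121.4, 102.2 and 81.7 CPM in CT CTD and at 184.5, 217.7, 207.2 and 189.7 CPM in EC-Myc OE CTD. In CT WD it was at 124.0, 63.1 and 64.9 CPM, and in EC-Myc OE WD at 158.7, 174.9, 163.5 and 164.6 CPM. All 8 EC-Myc OE libraries thus lay above all 6 CT libraries. Bhlhe40 was higher by log2 0.97 ± 0.19 on the control diet (adjusted p = 0.0166) and by 0.98 ± 0.19 on the western diet (adjusted p = 0.0325). The control diet call was made in 10 of 14 fits that each left out 1 library and was lost without CT CTD 2, CT CTD 3, EC-Myc OE CTD 2 or EC-Myc OE CTD 3. The western diet call was made in 6 of 14, and was lost without CT WD 2, CT WD 3, EC-Myc OE CTD 1, 2 or 3, or EC-Myc OE WD 2, 3 or 4.

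Nab2 binds Egr1, Egr2 and Egr3 and represses their activity, and the Egr proteins in turn induce it. It was at 3.56, 3.77 and 4.09 CPM in CT CTD and at 6.59, 6.27, 10.3 and 7.35 CPM in EC-Myc OE CTD, so every EC-Myc OE CTD library lay above every CT CTD library. It was higher by log2 1.001 ± 0.24 (adjusted p = 0.0386), a call made in 7 of 14 fits that each left out 1 library and lost without any CT CTD or EC-Myc OE CTD library. In CT WD Nab2 was at 5.71, 2.996 and 5.87 CPM and in EC-Myc OE WD at 4.51, 5.61, 7.44 and 5.87 CPM, and the western diet difference was log2 0.26 ± 0.24 (adjusted p = 0.617), which became 0.02 with CT WD 2 left out and 0.41 with CT WD 3 left out. Nab1, the other partner of the Egr proteins, differed on the control diet by log2 0.30 ± 0.24 (adjusted p = 0.616), with 0.47 without CT CTD 1 and 0.18 without CT CTD 2.

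Klf2, which endothelial cells induce under laminar flow, was at 27.999, 20.2 and 16.9 CPM in CT CTD and at 32.2, 37.7, 93.1 and 59.1 CPM in EC-Myc OE CTD. Every EC-Myc OE CTD library lay above CT CTD, with EC-Myc OE CTD 3 the highest of all 14. The difference was log2 1.35 ± 0.35 (adjusted p = 0.0492). This call was made in 3 of 14 fits that each left out 1 library, those without CT WD 1, CT WD 3 or EC-Myc OE CTD 1, and was lost in the other 11. Spry4, a feedback inhibitor of receptor tyrosine kinase signalling, was at 5.97, 4.31 and 3.30 CPM in CT CTD and at 10.3, 11.9, 12.7 and 7.04 CPM in EC-Myc OE CTD, without overlap. It was higher by log2 1.22 ± 0.30 (adjusted p = 0.0453). This call was lost without CT CTD 2, CT CTD 3, EC-Myc OE CTD 1, 2 or 3, or EC-Myc OE WD 1.

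Mafk encodes a small Maf protein, a bZIP factor with no activation domain. It was at 29.6, 25.7 and 23.5 CPM in CT CTD, at 39.4, 34.02 and 55.1 CPM in CT WD and at 41.2, 33.6, 47.9 and 43.0 CPM in EC-Myc OE CTD. CT CTD was again the low group, below all 11 other libraries. Mafk was higher in EC-Myc OE CTD by log2 0.66 ± 0.16 (adjusted p = 0.0434), a call made in 4 of 14 fits that each left out 1 library. It was lost without any CT CTD or EC-Myc OE CTD library and without EC-Myc OE WD 1, 3 or 4. Mafk was higher in CT WD by log2 0.71 ± 0.17 (adjusted p = 0.394). The other genes of the Fos, Jun, Maf and ATF families, 17 tested in all, gave no further call in the main edgeR fit. With no filter edgeR also called Maff in CT WD against CT CTD, beside 0.315%. Without CT WD 1 it called Maf in EC-Myc OE WD against CT WD, beside 5.72%. Maf and Mafg were the most abundant in CPM. Maf was higher in CT WD by log2 0.56 ± 0.18 (adjusted p = 0.540), and by 0.25 without CT WD 3, and Mafg by 0.22 ± 0.09 (adjusted p = 0.604). Fosl1, at 0.676 to 1.84 CPM, stood at log2 −0.83 ± 0.31 in CT WD (adjusted p = 0.595).

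On the western diet, edgeR called Bhlhe40 alone of the 112 and 13 without adjustment, 3 higher and 10 lower, beside 0.563% and 5.74% of all tested genes. Without CT WD 1 it called 14 of them beside 5.72%. It called 0 without CT WD 2 or 3, EC-Myc OE CTD 1, 2 or 3, or EC-Myc OE WD 2, 3 or 4. DESeq2 called 4, edgeR with no filter 10 and limma 1, beside 309 of 15458, 401 of 27899 and 30 of 15458 genes. Of the 17 MAP kinase feedback genes, Spred2 was higher in EC-Myc OE WD by log2 0.63 ± 0.16 (adjusted p = 0.0835). In EC-Myc OE WD against EC-Myc OE CTD, edgeR called 0 of the 112 at the adjusted level and 3 lower without adjustment (Arc, Socs3 and Spry4) beside 1.37%, and DESeq2 and limma called 0 beside 0.00647%. For the interaction edgeR called 0, and 20 without adjustment beside 2.70%, 19 of them below 0. DESeq2 called 0 beside 0.0194%, limma 0 beside 0% and edgeR with no filter 7 beside 0.104%. Sik1 had the smallest adjusted value, at log2 −1.40 ± 0.32 (adjusted p = 0.710).

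Of 23 upstream kinases and factors that switch immediate early genes on, edgeR called 0 in any of the 5 comparisons, with or without adjustment. Of all tested genes it called 0% to 1.91% with adjustment and 1.37% to 7.12% without. DESeq2 called 0 of the 23 at the adjusted level, beside 0.00647% to 3.29%. With shares this low, 0 of 23 does not show that these genes were unchanged. Without CT WD 1 edgeR called Mkl1 in EC-Myc OE WD against CT WD, beside the 5.72% given above. Libraries of the genotypes did not overlap for 7 of the 23 on the western diet, where 11.6% of all tested genes did not, and for 3 on the control diet beside 15.5%. Mef2c and Mef2d, muscle factors bound at several immediate early promoters, were the most abundant in CPM. Mef2c differed by log2 0.12 ± 0.12 on the control diet (adjusted p = 0.703) and Mef2d by 0.18 ± 0.08 (adjusted p = 0.295), and without EC-Myc OE CTD 4 by 0.01 and 0.12. Of the feedback phosphatases, Dusp1 was higher in CT WD by log2 0.47 ± 0.18 (adjusted p = 0.595), with 0.31 without CT WD 1, and Dusp5 by 0.74 ± 0.32 (adjusted p = 0.657), and Dusp5 by 0.21 without CT WD 3. The receptor inhibitor Errfi1 was higher by log2 0.52 ± 0.13 (adjusted p = 0.394), and by 0.34 without CT WD 3.

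CT WD 3, the library with the high Atf3 value, also held the highest levels of heat shock genes. Hspa1a, an inducible HSP70 gene, was at 66.0 CPM there against 2.21 to 5.56 CPM in the other 13 libraries. Hspa1b, its near-identical neighbour, was at 281.4 CPM against 9.33 to 24.7 CPM, and reads may be split between these copies in an uncertain way. The co-chaperone Dnajb1 was at 53.3 CPM against 5.47 to 12.3 CPM. Each of these was thus far outside the range of all other libraries. The small heat shock gene Hspb1 was at 893.2 CPM against 212.1 to 297.7 CPM, and the constitutive chaperone Hspa8 at 1309 CPM, 1.65 times the next library. Maff, a small Maf gene, was at 34.8 CPM, 2.74 times the next.

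Of the 8 heat shock genes, 5 were called higher in CT WD without adjustment, where 3.05% of all tested genes were called, and 0 with it by edgeR, with a median of log2 0.86 beside 0.01, and DESeq2 and limma called 0 of the 8. With no filter edgeR called 4 (Hspa1a, Hspa1b, Dnajb1 and Hspb1) beside 0.315%, and without CT WD 1 it called Hspa1a beside 0.259%. Hspa1a was higher by log2 3.29 ± 0.84 (adjusted p = 0.394), and by 0.43 without CT WD 3. Hspa1b was higher by log2 3.07 ± 0.80 (adjusted p = 0.419), and by 0.39 without it. Dnajb1 was higher by log2 1.76 ± 0.52 (adjusted p = 0.492), and by 0.29 without it. Maff was higher by log2 1.53 ± 0.40 (adjusted p = 0.427), and by 0.70 without it. Hspb1 was higher by log2 1.01, and by 0.21 without it. Hspa8 was higher by log2 0.55, by 0.19 without CT WD 3 and by 0.36 without CT CTD 1. The diet differences of these genes in CT mice therefore rest mainly on CT WD 3, as does that of Atf3. The count and median given for the heat shock list include that library. Of the 7 integrated stress response genes, Ppp1r15a, a phosphatase subunit that restores translation, was higher in CT WD by log2 0.91 ± 0.22 (adjusted p = 0.394), and by 0.60 without CT WD 3. Atf4, the central factor of that response, was higher by log2 0.33 ± 0.11 (adjusted p = 0.565), and by 0.20 without it. Chac1 was higher by log2 0.59 ± 0.41 (adjusted p = 0.851), with 1.099 without CT CTD 1 and 0.21 without CT CTD 3.

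**Figure D3:**
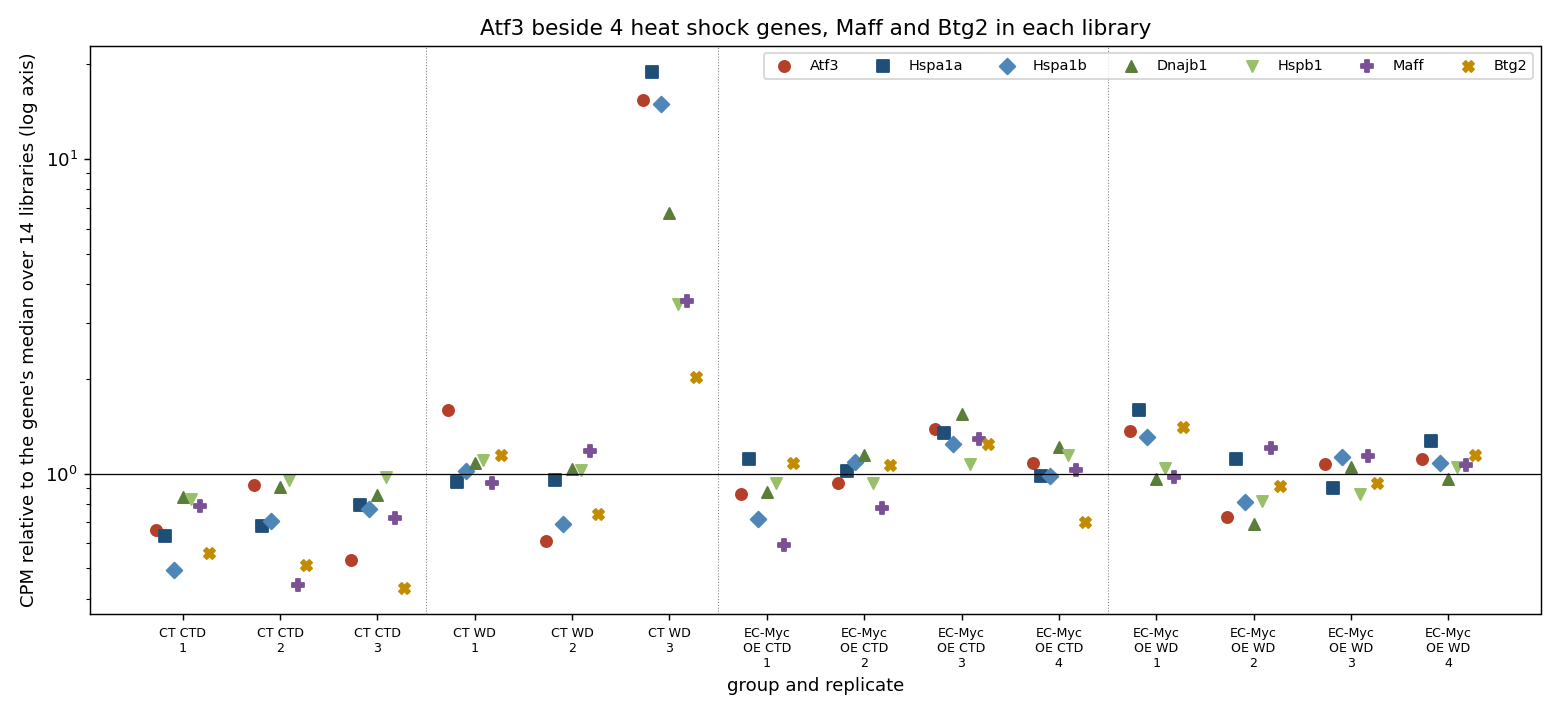
CPM relative to each gene's median over the 14 libraries, on a log axis, of Atf3, 4 heat shock genes, Maff and Btg2 in each library. CT WD 3 stands above every other library for all 7 genes, with Atf3 at 15.3 times its median.

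Cell type markers moved with some of these values, and in whole muscle more cells of a type and more RNA per cell cannot be told apart. The 5 fibroblast markers, with Dcn the most abundant, summed to 412.6, 385.7 and 301.6 CPM in CT CTD and to 886.9, 1042, 978.5 and 608.9 CPM in EC-Myc OE CTD, without overlap. They summed to 940.7, 336.8 and 330.2 CPM in CT WD and to 671.3, 1513, 859.4 and 717.5 CPM in EC-Myc OE WD. On the control diet 5 of 5 were higher without adjustment, beside 7.12% of all tested genes, and 0 with it by edgeR, at a smallest adjusted p = 0.0526. The 5 macrophage markers, with Csf1r the most abundant, summed to 35.0, 23.8 and 17.9 CPM in CT CTD and to 38.4, 47.1, 59.9 and 44.6 CPM in EC-Myc OE CTD. Likewise 5 of 5 were higher on the control diet without adjustment, beside the same 7.12%, and 0 with it, at a smallest adjusted p = 0.0724. In CT WD they summed to 57.0, 26.1 and 23.2 CPM and in EC-Myc OE WD to 34.04, 63.9, 37.5 and 45.3 CPM. CT WD 1 was thus the high CT WD library for both lists, as it was for Egr1, Egr3, Fosb, Junb and Ier2.

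The 6 endothelial markers, with Cdh5 the most abundant, summed to 297.5 to 329.3 CPM in CT CTD, 300.4 to 350.7 CPM in CT WD, 342.6 to 374.8 CPM in EC-Myc OE CTD and 375.6 to 390.7 CPM in EC-Myc OE WD. None of the 6 was over 1.5-fold or called in a genotype comparison, at a smallest adjusted p = 0.0232 on the control diet and 0.0322 on the western diet. Libraries did not overlap for 3 of the 6 on each diet, beside 15.5% and 11.6% of tested genes. The 4 tendon markers, with Fmod the most abundant, summed to 136.5, 44.6 and 87.96 CPM in CT CTD and to 237.8, 366.3, 288.8 and 177.4 CPM in EC-Myc OE CTD, without overlap. They summed to 309.98, 37.4 and 35.5 CPM in CT WD and to 231.04, 509.3, 337.5 and 172.7 CPM in EC-Myc OE WD. On the control diet all 4 were higher, 2 of them called without adjustment beside 7.12% and 0 with it, with a median of log2 1.22 beside 0.00. Over the 14 libraries, the mean of the 10 genes had a Pearson correlation of 0.62 with the summed endothelial markers, 0.57 with fibroblast markers, 0.54 with macrophage markers and −0.39 with fibre markers. With group means removed these were 0.54, 0.37, 0.25 and −0.63. Smooth muscle and pericyte markers, between 355 and 463 CPM, had 0.60, and 0.76 with group means removed. Neutrophil markers, of which 1 of 4 was tested, had 0.51 and 0.49 on these scales, epidermis markers 0.42 and 0.52, and Schwann cell markers 0.35 and 0.48. Tendon markers had 0.45 and 0.41. The satellite cell, adipocyte, erythroid and T cell lists lay between −0.18 and 0.28, and between −0.39 and 0.41 with group means removed. Without the 2 farthest libraries of each list, the first value became 0.81 for tendon, 0.54 for adipocyte, where it was 0.04, 0.02 for Schwann cell, 0.46 for endothelial, 0.44 for smooth muscle and pericyte and 0.42 for macrophage markers. The part of these cells in the levels of the 10 genes was not tested.

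The remaining marker lists were satellite cells at 32.8 to 40.7 CPM, adipocytes at 22.5 to 176.9 CPM with Cfd the most abundant, Schwann cells at 109 to 321 CPM and erythroid cells at 125 to 382 CPM. Neutrophil markers summed to 0.170 to 2.24 CPM, with S100a8, S100a9 and Retnlg at 0 in some libraries. T cell markers summed to 0 to 0.255 CPM, and all 3 were at 0 in CT CTD 3 and EC-Myc OE WD 1. Epidermal markers summed to 2.40 to 89.5 CPM, with Krt5 at 0 in EC-Myc OE CTD 4. In CT WD against CT CTD, 5 of 5 adipocyte markers were lower, at a median of log2 −0.87 beside 0.01 over all tested genes. All 4 epidermal markers were higher there, at 0.90, and in EC-Myc OE WD against EC-Myc OE CTD, at 1.33 beside 0.00. In the latter, 1 epidermal marker was called without adjustment, beside 1.37%. No other of these differences was called, and the groups overlapped for each. Mouse Myc, itself an immediate early gene, was at 4.59, 6.11 and 4.45 CPM in CT CTD, 8.71, 4.93 and 13.3 CPM in CT WD, 6.63, 5.87, 6.84 and 3.06 CPM in EC-Myc OE CTD and 9.03, 5.61, 5.74 and 5.22 CPM in EC-Myc OE WD. It was highest in CT WD 3, and the genotypes overlapped on each diet.

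The principal transcripts of the 10 genes have few exons. In the principal transcripts of GENCODE vM21 on GRCm38, Jun, Junb, Ier2 and Ier5 have 1 exon, Egr1, Egr2 and Egr3 have 2, and Fos, Fosb and Atf3 have 4. All 10 thus have 4 exons or fewer, against 21.4% of 13467 tested genes with a principal transcript, whose median is 9 exons. Genes with 1 exon make up 2.73% of those 13467. The median span of these 10 transcripts is 3852 bases, against 22402 for the 13467, with Atf3 the longest at 13045 and its whole gene longer still. They lie on 8 chromosomes. Junb and Ier2 are 311.6 kb apart on chromosome 8, and Atf3 and Ier5 are both on chromosome 1, at 191170296 to 191218039 and 155096361 to 155099636. Jun, at 95049034 to 95052222 on chromosome 4, overlaps the opposite-strand gene Junos in 232 of its 3189 exonic bases, and Junb overlaps Prdx2 in 173 of 2301. The use of strand in the counting is not given in the sources used here, so reads in those bases cannot be told apart, and Junos averaged 11.2 CPM, while Prdx2 averaged 139 CPM and Junb 31.8 CPM.

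RefSeq promoter windows on GRCm38.p6 were found for 7 of the 10 genes, Egr2, Fos, Fosb, Jun, Junb, Atf3 and Ier5, and not for Egr1, Egr3 and Ier2. In the 250 bases before the start, searched on both strands, TGACG, the core of the cAMP response element, was found in Fos, Fosb, Junb and Atf3, 4 of 7, against 17.8% of 32851 promoters. The full element TGACGTCA, which contains it, was in 0 of 7 against 1.55%, the AP-1 element TGANTCA in 0 against 6.75% and the CArG box of serum response factor in 0 against 1.47%. GGGCGG was in 6 of 7 against 32.7%, CCAAT in 3 against 33.9%, and TATAAA in 1, Fos, against 12.4%. A match describes letters in these windows and no match says only that they are not there. The TGACG of Atf3 lies within the last 7 bases before its RefSeq start, which fall in a GENCODE exon.

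The last 140 bases before the RefSeq start of the 4 genes with TGACG, shown for that shared motif, are given 5′ to 3′, with TGACG, read on either strand, and TATAAA in capitals. The 4 genes differed in how closely they moved together. Fos and Junb stood at 0.65, and at 0.92 with group means removed. On these scales Fos and Atf3 stood at 0.65 and 0.50, Fosb and Junb at 0.62 and 0.47, and Fos and Fosb at 0.61 and 0.26. Junb and Atf3 stood at 0.36 and 0.44, and at 0.68 and 0.45 without CT WD 3. Fosb and Atf3 stood at 0.21 and −0.24, and at 0.44 and −0.04 without CT WD 3. The sequences are Fos at chr12:85473750-85473889 on the plus strand, Fosb at chr7:19310046-19310185, Junb at chr8:84978749-84978888 and Atf3 at chr1:191183334-191183473, the last 3 on the minus strand. Fos holds TGACG at 2 places and the other genes at 1.
Fos: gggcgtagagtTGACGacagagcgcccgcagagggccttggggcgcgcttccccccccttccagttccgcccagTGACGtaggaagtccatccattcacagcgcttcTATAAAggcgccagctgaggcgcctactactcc
Fosb: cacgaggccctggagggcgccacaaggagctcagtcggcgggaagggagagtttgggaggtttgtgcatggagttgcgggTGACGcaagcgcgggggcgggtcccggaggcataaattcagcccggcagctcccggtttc
Junb: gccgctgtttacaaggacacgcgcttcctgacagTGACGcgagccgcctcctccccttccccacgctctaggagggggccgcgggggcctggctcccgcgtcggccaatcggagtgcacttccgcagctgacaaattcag
Atf3: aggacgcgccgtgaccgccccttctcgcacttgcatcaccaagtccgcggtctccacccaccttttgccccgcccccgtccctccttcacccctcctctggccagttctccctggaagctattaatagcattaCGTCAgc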

How the data were processed

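The authors deposited counts and FPKM per gene, and the processing notes name HISAT2 2.0.5, featureCounts 1.5.0-p3 and mm10. The strand setting is not given in the sources used here. The 10 genes and the gene lists were chosen with earlier results of these data known. Counts were fitted in edgeR 4.0.16 (R 4.3.3) with TMM, filterByExpr and a quasi-likelihood test, 1 mean per group over 14 libraries, and p-values were adjusted by Benjamini-Hochberg over 15458 genes per comparison. Correlations use log2 CPM with a prior count of 2. The fit was tested on simulated data, and nothing reported here rests on that test. Alternatives were DESeq2 1.42.0, DESeq2 size factors, limma 3.58.1 on the log2 of the deposited FPKM plus 1 or 0.1, no filter, a replicate block, only the groups compared, each library left out, and CT WD and EC-Myc OE CTD names exchanged, since the study's legend gives other group sizes than the labels. Same-numbered CT libraries deviated together at r of 0.385, 0.123 and 0.203, and CT numbers were taken as pairs. These values do not establish a pairing, since no differently numbered libraries are set beside them. Genes named were, per related list, those called, up to 3 with the smallest unadjusted p among those over 1.5-fold, and the 2 of highest mean CPM; per marker list the most abundant; and the 8 most alike. Zfp36, Nr4a3, Arc and Socs3 were named after their values were seen.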

Additional observations from a re-analysis of the deposited data

Results flagged for a closer look

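In groups of 4, a library was marked when its gap to the nearest of the others, divided by the range of the group, passed Dixon's critical value. Chance marks about 1 in 20 groups, and 7 of 102 were marked, none of them of the 10 genes. EC-Myc OE CTD 4 was far from its group for 4 values: Nab1 with a ratio of 0.841, Mef2d with 0.875, Atf4 with 0.840 and the summed fibre markers with 0.866. Mef2c in EC-Myc OE WD 4 had a ratio of 0.970, Klf2 in EC-Myc OE WD 3 had 0.929 and Spred2 in EC-Myc OE WD 2 had 0.832. The causes were not tested.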

How the results depend on the processing

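Medians of the 10 genes kept their direction in every comparison under every alternative except 1 (leaving out CT WD 1 for EC-Myc OE WD against CT WD), and the cause of the changes below was not tested. With group names kept, single-gene directions were as reported in 215 of 220 gene-by-setting values for CT WD against CT CTD, 212 of 220 for EC-Myc OE WD against EC-Myc OE CTD, 208 of 220 for EC-Myc OE WD against CT WD, 200 of 210 for the interaction and 220 of 220 for EC-Myc OE CTD against CT CTD. With limma on log2(FPKM + 1), the median was 0.64 for CT WD against CT CTD, −0.98 for the interaction and 0.59 for EC-Myc OE CTD against CT CTD. With 1 library left out, the median ran from 0.69 to 1.49967 for CT WD against CT CTD and from −0.37 to 0.23 for EC-Myc OE WD against CT WD. Counts called without adjustment of the 10 genes then ran from 4 to 7 for CT WD against CT CTD, where 2.6% to 5.43% of all tested genes were called, 0 to 3 for EC-Myc OE WD against EC-Myc OE CTD (1.23% to 1.78%) and 0 to 3 for EC-Myc OE WD against CT WD (3.75% to 11.8%). Under limma with log2(FPKM + 1) or log2(FPKM + 0.1) they were 4 and 4 for CT WD against CT CTD (0.666% and 2.35%) and 0 and 0 for EC-Myc OE WD against CT WD (1.71% and 5.62%), and under log2(FPKM + 1) 0 for EC-Myc OE WD against EC-Myc OE CTD (0.201%). DESeq2 gave 0 (1.34%) and no filter 3 (2.39%) for EC-Myc OE WD against EC-Myc OE CTD, and no filter 2 (5.06%) for EC-Myc OE WD against CT WD. Related genes called at the adjusted level are given with the share of all genes in that fit in brackets. For CT WD against CT CTD they were 4 with DESeq2 (0.201%), 15 with no filter (0.315%), 5 with names exchanged (1.91%) and 0 to 2 with 1 library left out (0% to 0.259%). For EC-Myc OE WD against EC-Myc OE CTD they were 1 with names exchanged (0.563%). For EC-Myc OE WD against CT WD they were 4 with DESeq2 (2%), 10 with no filter (1.44%), 0 with only these groups fitted (0.0269%) and 0 with names exchanged (0.00647%). With 1 library left out they were 0 to 14 (0.026% to 5.72%). For EC-Myc OE CTD against CT CTD they were 9 with DESeq2 (3.29%), 13 with no filter (2.04%) and 1 and 1 with limma (0.757% and 1.27%). They were 9 with only these groups fitted (2.96%), 0 with names exchanged (0%) and 0 to 8 with 1 library left out (0.403% to 2.78%). For the interaction they were 7 with no filter (0.104%). With the replicate block, related calls were 3 for CT WD against CT CTD, 0 for EC-Myc OE WD against CT WD and 0 for EC-Myc OE CTD against CT CTD, and calls without adjustment of the 10 genes 0 for EC-Myc OE WD against CT WD (5.07%). Over all tested genes the block called 10 against 0, 1 against 87 and 14 against 295 in these 3 comparisons, and 1 against 0 for the interaction. Same-numbered EC-Myc OE libraries deviated together at r of 0.0711, 0.138, 0.142 and 0.338, a range that overlaps the CT one. Same-numbered libraries of different genotype stood at −0.230 to 0.0465. No differently numbered libraries are set beside these values, so they do not show that the numbers pair within either genotype. Leaving out both EC-Myc OE libraries numbered 4, chosen after seeing the data, gave related calls of 0 for EC-Myc OE WD against CT WD (0.026%). Calls without adjustment of the 10 genes were then 2 for that comparison (5.95%) and 2 for EC-Myc OE WD against EC-Myc OE CTD (1.24%). Fitting only the groups compared was not possible for the interaction. Groups of 3 or 4 libraries and low counts of Egr2, Egr3 and Fosb in some libraries limit the precision.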
